A study of Homo sapiens with 6 samples.

Results

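The VPS13 family comprises VPS13A, VPS13B, VPS13C and VPS13D, and the mRNAs of these 4 genes were examined in ORC1 native RNA immunoprecipitates (RIP). ORC1 belongs to the origin recognition complex, the protein assembly that licenses origins of DNA replication. The 4 members were chosen by gene symbol from the 23013 genes of the deposited table, with their ORC1 IP and input values already known, so their own values are given as a description and carry no test. The libraries came from nuclei of untreated, asynchronous HCT116 cells, an established human colorectal cancer line. An antibody to ORC1 gave 3 ORC1 IP libraries, each numbered with an input library of nuclear RNA that saw no antibody as RIP replicate 1, 2 or 3, and no control antibody library was analysed here.

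VPS13 proteins are among the longest lipid transfer proteins known. Each is a rod with a hydrophobic groove along which lipids pass from one membrane to another at sites where organelles touch. VPS13A acts between the endoplasmic reticulum and mitochondria or lipid droplets, VPS13B at the Golgi, VPS13C at late endosomes, lysosomes and lipid droplets, and VPS13D at mitochondria and peroxisomes. Loss of these genes causes chorea-acanthocytosis, Cohen syndrome, early-onset Parkinson disease and a recessive ataxia, respectively. The study had also picked VPS13A for RT-qPCR after RIP.

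All 4 genes encode very long mRNAs. In GENCODE v44 (GRCh38), the longest transcripts measured 15227 nt for VPS13A, 14705 nt for VPS13B, 14578 nt for VPS13C and 16357 nt for VPS13D, against a median of 3283 nt over the tested genes. These lengths lay at the 99.1st to 99.5th percentile. VPS13A (ENSG00000197969) spans chr9:77177445-77421537 on the plus strand, VPS13C (ENSG00000129003) chr15:61852389-62060473 on the minus strand and VPS13D (ENSG00000048707) chr1:12230030-12512047 on the plus strand. VPS13B (ENSG00000132549) lies on chromosome 8, and its 864 kb make it the largest of the 4 genes. The transcripts with the longest coding parts had 72 exons in VPS13A, 62 in VPS13B, 85 in VPS13C and 70 in VPS13D.

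The members share few identical stretches of sequence. VPS13A and VPS13C were the closest pair, with 59.0% identical bases over 9141 aligned coding positions, and the other pairs had 43.6% to 47.2%. Of all 31-base stretches of a member's transcript, between 0.0197% (VPS13A) and 0.823% (VPS13C) also occurred in a transcript of another gene. The members differed in base composition. GC content was 36.8% in VPS13A and 38.8% in VPS13C, and 43.0% in VPS13B and 46.9% in VPS13D, where the median of tested genes was 48.8%.

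The study describes tandem GAA repeats as a feature of RNAs in its ORC1 RIP, so the transcript strand of each longest coding transcript was searched for GAAGAA, overlapping matches included. VPS13A held 19 matches and VPS13C 21, and VPS13B held 9 and VPS13D 10. Per kilobase these were 1.25 and 1.57 matches in VPS13A and VPS13C, and 0.639 and 0.611 in VPS13B and VPS13D, beside a median of 0.693 over all tested genes with an annotated transcript. At least 1 match occurred in 77.5% of those genes, and in 97.4% of genes with a transcript of at least 10000 nt. The longer GAAGAAGAA, which contains GAAGAA, occurred once each in VPS13A and VPS13C and was absent from the searched transcripts of VPS13B and VPS13D. It was found in 13.0% of tested genes and in 33.7% of those with a transcript of at least 10000 nt. The longest coding run within a single exon is shown for 3 members to make the difference in run length visible, with the repeat in capitals and 30 bases per window. They lie at chr9:77321201-77321230 (plus strand, exon 43), chr15:61915641-61915670 (minus strand, exon 61) and chr1:12266899-12266928 (plus strand, exon 14) on GRCh38.
VPS13A: gtcagatcctGAAGAAGAAaactacaaagt
VPS13C: tttctttcaaGAAGAAGAAcatttttacta
VPS13D: agtctcttcctcGAAGAAattcctcgttgc
A match describes the letters of the transcript and is no evidence of a binding site.

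The ORC1 IPs were sequenced more deeply, with 25134156 to 36008733 recovered reads on genes against 13703033 to 17248924 for the inputs. Each member had 393 to 2387 reads per input library and 2456 to 20616 per ORC1 IP, and the lowest of these counts, 393, carries a counting error of 5.04%. Of 5 epithelial markers, EPCAM, KRT8, KRT18 and CDH1 were present in each library (560 normalised counts or more), and VIL1 was near 0 (6.30 or fewer). Of 7 markers of other cell types, PTPRC, COL1A2, PECAM1 and CD3E had no row in the table, VWF and ACTA2 stayed at or below 39.0 normalised counts, and COL1A1 had 161 to 298 in inputs and 432 to 787 in ORC1 IPs. The summed level of the 3 listed in the table was 194 to 356 in inputs and 471 to 860 in ORC1 IPs, and its part in the members' values was not tested.

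VPS13A mRNA was higher in each ORC1 IP than in any input. Inputs 1, 2 and 3 held 1218, 733 and 460 normalised counts, that is reads divided by a size factor of each library. ORC1 IPs 1, 2 and 3 held 5004, 6934 and 8895. The size factors did not follow depth alone. ORC1 IPs 1 and 2 had 26213138 and 25134156 recovered reads but factors of 0.869 and 1.72. Its mean went from 803 ± 384 to 6944 ± 1945 (SD, n = 3). On the log2(normalised count + 1) scale the fold change was 3.18 ± 0.45 (SE), or 9.08-fold. The groups did not overlap, and ORC1 IP replicate 2 sat between the other two ORC1 IPs. By replicate number, log2 IP/input was 2.04, 3.24 and 4.27, and the fold change stood at the 99.8th percentile of all 16513 tested genes.

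VPS13C, the closest relative of VPS13A, did not share its behaviour in replicate 2. Its inputs had 1250, 1354 and 1078 normalised counts, whereas its ORC1 IPs had 4290, 1426 and 14726. In normalised counts, ORC1 IP 2 was level with the inputs. It exceeded the highest of them by a margin of only 1426 to 1354, so that the groups were barely apart. The log2 fold change was 1.87 ± 0.66 (SE), with 1.78, 0.07 and 3.77 by replicate. Inputs of VPS13C were the most alike of the 4 members, at 1227 ± 139 normalised counts, whereas its ORC1 IPs spread the most, at 6814 ± 7000 (SD, n = 3).

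VPS13B gave 1411, 3358 and 1587 normalised counts without the antibody. The ORC1 IPs gave 8249, 2451 and 12973. In normalised counts the groups overlapped, because ORC1 IP 2 lay below input 2. Its log2 fold change was 1.71 ± 0.61 (SE), with 2.55, -0.45 and 3.03 by replicate. COX6C, a subunit of cytochrome c oxidase encoded on the opposite strand, overlaps 4381 bases of the VPS13B gene but 0 bases of its exons in GENCODE v44. COX6C moved the other way, with a log2 fold change of -1.79 (limma adjusted p = 0.0405; 0.00319 to 0.272 under the alternatives).

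VPS13D was the member with the smallest difference. Its inputs reached 2022, 2668 and 2793 normalised counts, and the ORC1 IPs reached 6925, 1775 and 15364. On normalised counts the groups overlapped, since ORC1 IP 2 was lower than each input. The log2 fold change was 1.22 ± 0.66 (SE), with 1.78, -0.59 and 2.46 by replicate, and stood at the 90.2nd percentile of tested genes, below VPS13B (95.6th) and VPS13C (96.7th).

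**Figure D1:**
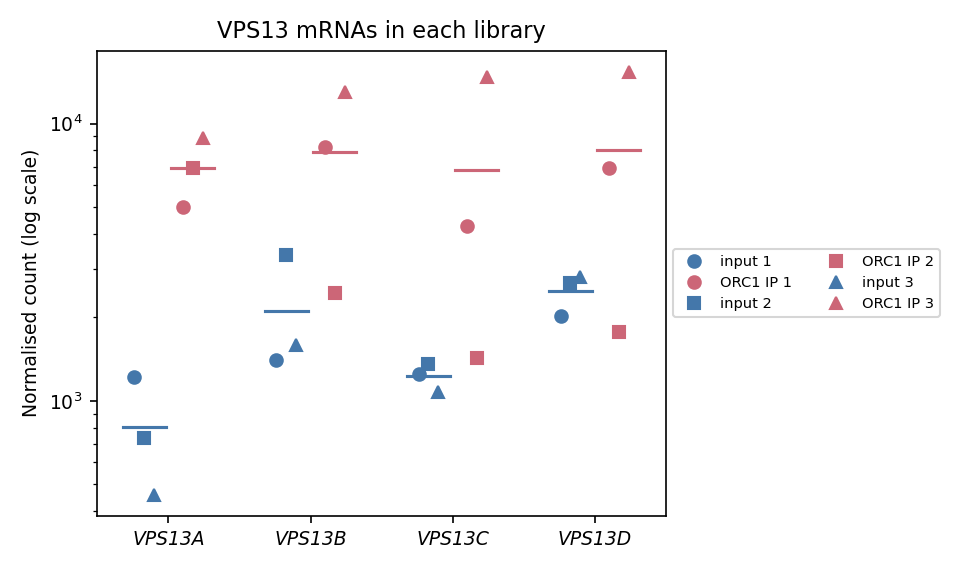
Normalised counts (log scale) of the 4 VPS13 mRNAs in 3 inputs (blue) and 3 ORC1 IPs (red); marker shapes give the RIP replicate and short lines the group means. VPS13A is the member whose ORC1 IP 2 value (6934) lies well above its inputs, whereas VPS13B, VPS13C and VPS13D have 2451, 1426 and 1775 there, close to or below their inputs.

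The 4 mRNAs thus moved in the same direction in replicates 1 and 3 and diverged in replicate 2. In replicates 1 and 3 all 8 values of log2 IP/input lay between 1.78 and 4.27. The pairing of inputs and ORC1 IPs in replicates 1 and 2 is in doubt. Each ORC1 IP was therefore also set against the mean log2 level of all 3 inputs, a comparison chosen after seeing the data. ORC1 IPs 1 and 3 then gave 1.49 to 3.59 for the 4 members, and ORC1 IP 2 gave 3.22 for VPS13A, 0.32 for VPS13B, 0.22 for VPS13C and -0.48 for VPS13D. The gap between VPS13A and the other members in ORC1 IP 2 was thus present without the pairing, whereas the sign of VPS13B and the order of VPS13B and VPS13C rested on it. In replicate 2, VPS13A was at the 98.8th percentile of all tested genes, and VPS13C, VPS13B and VPS13D were at the 52.0th, 35.6th and 31.8th. Against the mean of all inputs, these percentiles were 99.6 for VPS13A, 59.2 for VPS13C, 62.7 for VPS13B and 33.3 for VPS13D. VPS13A made up 7.77% to 20.6% of the summed VPS13 counts in the inputs and 20.5% and 17.1% in ORC1 IPs 1 and 3, but 55.1% in ORC1 IP 2. Over all genes, leaving out ORC1 IP 2 raised the number called higher from 376 to 1965, and the counts of calls below are also given without this library. Without it, log2 fold changes were 3.16, 2.40, 2.70 and 2.06 for VPS13A, VPS13B, VPS13C and VPS13D. Leaving out ORC1 IP 3 instead gave 2.98, 1.20, 1.02 and 0.51.

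**Figure D2:**
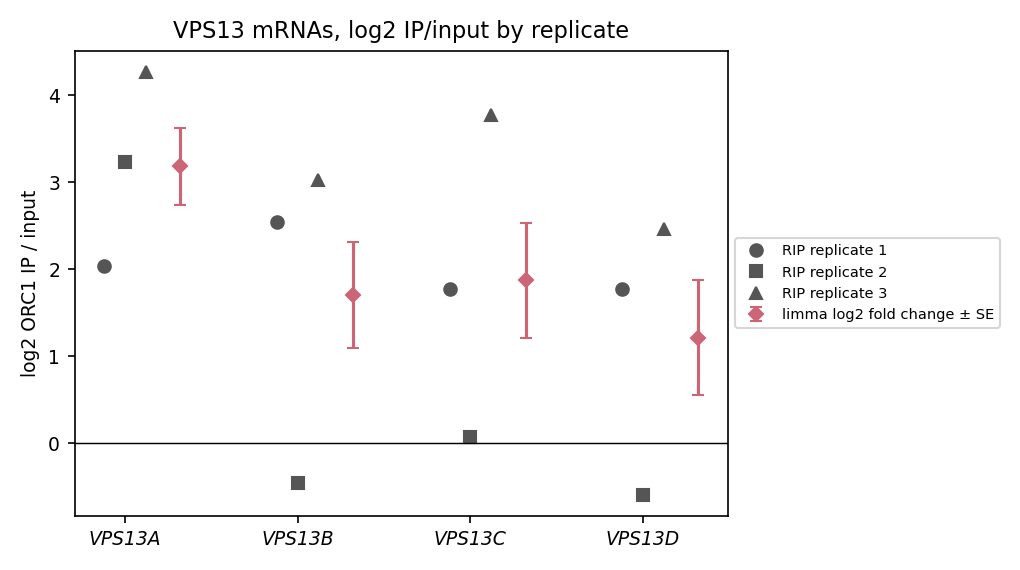
log2 IP/input of each VPS13 mRNA in RIP replicates 1, 2 and 3 (grey markers) with the limma log2 fold change and its SE (red, 3 libraries against 3). Replicate 2 is at 3.24 for VPS13A and between -0.59 and 0.07 for the other members.

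In the fit across all genes, 1 of the 4 members, VPS13A, was called higher (limma, Benjamini-Hochberg adjusted p under 0.05), where 2.28% of tested genes were called higher and 1.42% lower. All 3 ORC1 IPs lay above all 3 inputs for VPS13A and VPS13C, a pattern met by 12.7% of tested genes. Since the members were picked with this contrast known, nothing is read from these counts. Calls depended on the libraries and the tool. DESeq2 on the recovered reads called all 4 members higher, as did limma without ORC1 IP 2, and limma without input 3 called 0. Over all tested genes, these fits called 1266, 1965 and 6 higher, respectively. With the replicate block, which uses the doubted pairing, the call of VPS13A remained.

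Levels can be compared between members per kilobase of the longest transcript. In inputs, VPS13A was the lowest, at 52.8 ± 25.2 normalised counts per kb, followed by VPS13C at 84.2 ± 9.57, VPS13B at 144 ± 73.3 and VPS13D at 152 ± 25.3 (SD, n = 3). VPS13A and VPS13C overlapped in range, as did VPS13B and VPS13D, whereas the highest VPS13C input (92.9) lay below the lowest VPS13B input (95.9). Per kilobase of coding length the order of the means was the same, but the ranges of VPS13C (95.7 to 120.2) and VPS13B (116.9 to 278.3) then overlapped. In ORC1 IPs the 4 means per kilobase were much closer, from 456 ± 128 for VPS13A to 537 ± 358 for VPS13B, and neighbours in that order did not differ beyond their spread. The member with the lowest input level thus had the largest log2 fold change, and the member with the highest had the smallest, where both measures use the same inputs.

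The comparison was then extended to genes that share the members' biochemistry, partners, name or length, each read against all tested genes, whose log2 fold changes had a median of 0.01 and were positive for 50.7%. The 6 other bridge-like lipid transfer proteins, which carry the same kind of groove, had a median of 0.37, and all 6 values were positive, although in replicate 2 alone 3 of the 6 were. The value of UHRF1BP1L turned to -0.01 without input 2 and to -0.0015 with total count scaling, and that of KIAA0100 to -0.07 without ORC1 IP 3. ATG2B, which feeds lipids to the growing autophagosome, rose from 143, 126 and 98.3 normalised counts (inputs) to 383, 427 and 544 (ORC1 IPs). Its log2 fold change was 1.87 ± 0.36 (SE; limma adjusted p = 0.0194), and all 3 replicates were positive, replicate 2 included (1.75). The call of ATG2B was lost with total count scaling (limma adjusted p = 0.112), without input 2 (0.0802), input 3 (0.176) or ORC1 IP 3 (0.0798), in a range of 0.000264 to 0.176 over the alternatives.

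KIAA1109, now also named BLTP1, had 1765, 1682 and 1445 normalised counts in its inputs, compared with 6157, 3126 and 17428 after immunoprecipitation. Its groups did not overlap, but its log2 fold change of 2.10 ± 0.57 (SE) missed the threshold (limma adjusted p = 0.0594; 0.000569 to 0.318 under the alternatives), which it passed in edgeR, in DESeq2 and without ORC1 IP 2. The 4 remaining genes have shorter transcripts, of 5198 to 9567 nt, and smaller values that did not pass. These were 0.45 for UHRF1BP1, 0.29 for ATG2A, 0.25 for KIAA0100 and 0.21 for UHRF1BP1L, with limma adjusted p-values of 0.512 to 0.830. ATG2B and KIAA1109, with 13162 and 19591 nt, are the bridge-like genes outside the VPS13 family whose transcripts reach 10000 nt. The part of transcript length in these values was not tested.

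Known partners of VPS13 proteins and the lipid scramblases that work beside such proteins had a median log2 fold change of -0.31 over 15 genes, 4 of them positive, and 0 were called in either direction. At an unadjusted p under 0.05, limma gave 1 higher and 1 lower gene (6.67% each), below the 12.2% higher and 9.45% lower over all tested genes, and edgeR and DESeq2 called 0 of the 15. FAM177A1, a Golgi protein that binds VPS13B, had the highest value, 1.21 ± 0.38 (SE; limma adjusted p = 0.0948), and RHOT1, a mitochondrial GTPase that recruits VPS13D, had 0.78 (0.418). The lowest values were -1.23 for the scramblase VMP1 (0.178) and -0.68 for XK (0.419), the membrane partner of VPS13A. VMP1 was called lower without ORC1 IP 2 (0.00509; range 0.00509 to 0.488 over the alternatives).

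Lipid transfer proteins that act as shuttles or at contact sites had a median of 0.18, with 22 of 31 genes positive and 0 called. At an unadjusted p under 0.05, limma gave 1 higher (3.23%) and 0 lower genes, edgeR called 0 and DESeq2 called 1, PITPNM2. Without ORC1 IP 2, limma called 2 higher, PITPNM2 and the ceramide transporter gene COL4A3BP, and 0 lower. That fit called 1965 higher and 1053 lower over all 16513 tested genes. The highest values were those of PITPNM2, a phosphatidylinositol transfer protein (1.19 ± 0.35, SE; limma adjusted p = 0.0727), and PDZD8 (0.96; 0.263), and the lowest those of ESYT1 (-0.53; 0.593) and STARD7 (-0.53; 0.545). Genes that carry the VPS name or belong to the same sorting complexes but encode no lipid bridge, such as subunits of HOPS, retromer, GARP and ESCRT, had a median of 0.01, with 17 of 33 positive and 0 called. At an unadjusted p under 0.05, limma gave 0 higher and 3 lower genes (9.09%, near the 9.45% of all genes), edgeR called 0, and DESeq2 called VPS25 lower. Without ORC1 IP 2, limma called 4 genes higher (CCDC132, PIK3R4, VPS4B and VPS53) and 2 lower (VPS25 and VPS37D). These shares of the list were near those of the same fit over all tested genes. CCDC132 (0.98) and VPS8 (0.80) were the highest and VPS25 (-1.28) and VPS51 (-1.12) the lowest, with limma adjusted p-values of 0.0636 to 0.305. Median transcript lengths of the 3 lists just described were 3848, 4631 and 3875 nt, and their longest transcripts had 7829, 10652 and 13499 nt.

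Genes with a transcript of at least 10000 nt, a group of 626 that includes the 4 members, ATG2B and KIAA1109, had a median log2 fold change of 0.70, and 510 of them were positive. Of these 626 genes, 61 (9.74%) were called higher and 0 lower, against the 2.28% and 1.42% over all genes. At an unadjusted p under 0.05, limma gave 203 higher (32.4%, against 12.2% of all tested genes) and 12 lower (1.92%, against 9.45%). The number called higher was 269 without ORC1 IP 2, 35 without ORC1 IP 1, 6 without ORC1 IP 3, 8 without input 2 and 3 without input 3. Over all tested genes, the same settings gave 1965, 196, 24, 48 and 6. Within this group VPS13A ranked 4th, VPS13C 68th, VPS13B 95th and VPS13D 180th by log2 fold change. In replicate 2 alone, 98.9% of the group lay below VPS13A, and 42.7%, 24.3% and 20.8% lay below VPS13C, VPS13B and VPS13D. The medians of the group by replicate were 0.66, 0.25 and 1.26.

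**Figure D3:**
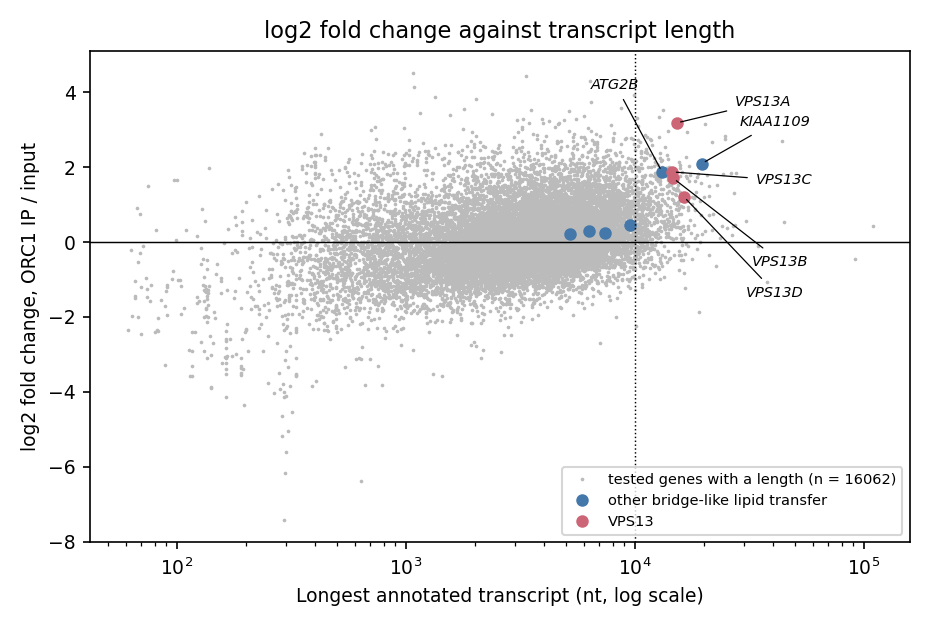
Log2 fold change of ORC1 IP over input (limma, 3 against 3) against the length of the longest annotated transcript (nt, log scale) for 16062 tested genes, with VPS13 genes in red and the 6 other bridge-like lipid transfer genes in blue. The VPS13 genes, ATG2B and KIAA1109 lie to the right of the dotted line at 10000 nt with values of 1.22 to 3.18, and the 4 shorter bridge-like genes lie between 0.21 and 0.45.

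Across the 626 long genes, log2 IP/input correlated with GC content with a Spearman rho of 0.29, -0.27 and -0.04 in replicates 1, 2 and 3, a description over genes that share the same libraries. In replicate 2, the 157 genes lowest in GC (up to 40.1%) had a median log2 IP/input of 0.50 and the 157 highest (from 50.3%) had -0.23. In replicate 1 these medians were 0.03 and 1.14. Against the mean of all inputs, rho was 0.16, -0.25 and 0.08 for ORC1 IPs 1, 2 and 3. VPS13A and VPS13C, with 36.8% and 38.8% GC, belong to the low group. In replicate 2, log2 IP/input was 3.24 for VPS13A, 0.07 for VPS13C, -0.45 for VPS13B and -0.59 for VPS13D. The part of base composition in the members' values was not tested.

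**Figure D4:**
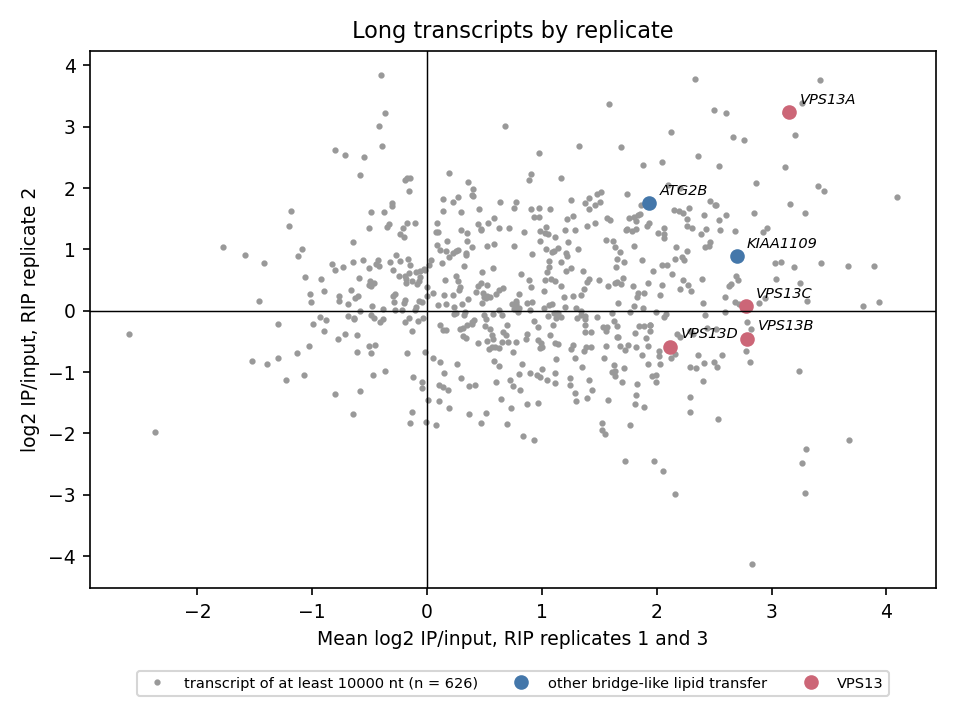
log2 IP/input in RIP replicate 2 against the mean of replicates 1 and 3 for the 626 genes with a transcript of at least 10000 nt, with VPS13 genes in red and ATG2B and KIAA1109 in blue. VPS13A is high on both axes (3.15 and 3.24), whereas VPS13B, VPS13C and VPS13D have 2.12 to 2.79 on the horizontal axis and -0.59 to 0.07 on the vertical one.

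Likeness to each member was measured over the 6 libraries as the root-mean-square difference of log2 values after each gene's mean was removed, among 11406 genes with a mean of at least 100 normalised counts. The 3 genes most like VPS13A were CENPF, a kinetochore protein (0.25), the zinc finger gene ZNF91 (0.26) and C5orf42 (0.26). Their log2 IP/input in replicate 2 was 2.87, 3.12 and 3.22, which follows from a choice that used those libraries. VPS13B was closest to MYOF (0.24), SMG1 (0.28) and FAM208B (0.29). VPS13C was closest to SYNE1 (0.24), MYCBP2 (0.29) and the bridge-like gene KIAA1109 (0.29), and VPS13D to ITPR1 (0.15), RNF213 (0.19) and HERC1 (0.22). The log2 IP/input of these 9 genes in replicate 2 lay between -0.86 and 0.89, which follows from the same kind of choice. Among the members, VPS13C and VPS13D were the closest pair (0.43), VPS13B differed from them by 0.49 and 0.47, and VPS13A differed from all 3 by 1.16 to 1.42. By likeness to VPS13A, VPS13C, VPS13B and VPS13D still ranked 997th, 1133rd and 2559th of 11405 genes.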

How the data were processed

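Native ORC1 RIP-seq and nuclear input RNA from HCT116 cells were analysed as 3 ORC1 IPs and 3 inputs, grouped by the labels. Per the study's methods, Trimmomatic was used for trimming, STAR for alignment to hg19, featureCounts for counts per Ensembl gene and DESeq2 for normalisation; strand use and multi-mapping reads are not given in the sources used here. What the authors deposited for each library is a normalised signal: reads per gene over that library's size factor. All values (100%) were whole multiples of the library's smallest value within 0.001, so whole reads were recovered. The authors' deposited log2 fold changes, their standard errors and Wald score, and their p-values were not used.

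Log2(normalised count + 1) was tested with limma 3.58.1 (intensity trend, no block, Benjamini-Hochberg adjustment) for 16513 genes with a mean of at least 10, a scale that understates changes of low genes. All 4 members passed this filter. Alternatives were pseudocounts of 0.5 and 5, no filter or a mean of 50, total count and TMM scaling, edgeR 4.0.16 and DESeq2 1.42.0 on recovered reads, no trend, a replicate block and each library left out. The limma step was tested on simulated counts with the same dispersion for every gene and no outlying library. That test does not measure its accuracy under the spread between the ORC1 IPs seen here. The members and lists were chosen with earlier results of these data known. Named genes were the members, the other bridge-like genes, the 2 highest and 2 lowest of each further symbol list (mean of at least 100) and the 3 genes most like each member; COX6C was named after its values were seen.

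The labels give an input and an ORC1 IP of one number to the same RIP replicate, which is where the pairing comes from. After group means were subtracted, libraries with the same number correlated by -0.32, -0.24 and 0.22 across genes, and input 2 correlated best with ORC1 IP 1 (0.50). The numbers of inputs 1 and 2, or of ORC1 IPs 1 and 2, are thus in doubt. Values by replicate number and the replicate block rest on these numbers. The study's methods describe the ORC1 RIP-seq as triplicate experiments and its experiments as independently repeated, and no source used here names the culture behind each library. Lengths, GC content, overlaps and sequences came from GENCODE v44 (GRCh38) by gene identifier, matched for 16062 tested genes (97.3%), and coding parts were aligned with MAFFT 7.526. Members on opposite strands of other genes have uncertain counts where exons overlap. Counting errors cover counting only.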

Additional observations from a re-analysis of the deposited data

How the results depend on the processing

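The log2 fold changes of the 4 members were positive under all 16 alternatives. Each moved by less than the SD of log2 IP/input between replicates (1.12 to 1.89). That limit is wide, rests on the replicate numbers and could hardly be exceeded by leaving out 1 library. With single libraries left out, log2 fold changes ranged from 2.84 to 3.54 for VPS13A and 1.20 to 2.40 for VPS13B. The ranges were 1.02 to 2.70 for VPS13C and 0.51 to 2.06 for VPS13D. Over all genes, 376 were called higher and 234 lower. Total count scaling gave 88 and 98, which moved the median of all genes from 0.01 to -0.19, DESeq2 gave 1266 and 718, limma without the trend gave 143 and 96, and leaving out single libraries gave 6 (input 3) to 1965 (ORC1 IP 2) and 23 to 1053. With the replicate block, 433 and 191 genes were called, and VPS13A and ATG2B kept their calls. Of the 6 other bridge-like genes, 1 was called higher, against 0 with total count scaling, 2 in edgeR, 2 in DESeq2 and 0 to 2 with libraries left out, and their median lay between 0.13 and 0.68 in the latter. The shuttle proteins had 1 call in DESeq2 and 0 to 2 with libraries left out, and the VPS-named genes 0 to 4. Of the long genes, 61 were called higher, against 29 with total count scaling, 171 in DESeq2, 29 without the trend, and 3 to 269 with libraries left out. The cause of these changes was not tested. With Pearson correlation in place of the root-mean-square difference, 1 of the 3 genes most like VPS13B was shared and 0 for the other members. The lowest count of a member, 393 reads, carried a counting error of 5.04%, and 3 libraries per group limit the precision of the members' values. Other effects of depth on these values were not tested.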
